A study of Mus musculus with 20 samples.

Results

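The interferon response genes described here are 35 listed mouse genes: 24 targets of type I interferon, 5 interferon-inducible GTPases and 6 interferon regulatory factors (IRF) and STAT factors. A gene was taken from the probe sets annotated to it alone, and where there were several, the one brightest on average was used. By this rule 33 of the 35 were represented, of 18194 genes in all: 22 type I targets, 5 GTPases and 6 factors. The ubiquitin-like modifier gene Isg15, whose 1 probe set also names a second gene, and Ifi44 are not analysed here.

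The samples were erythroid progenitors at the stage of the colony-forming unit erythroid (CFU-E), when survival requires the hormone erythropoietin (Epo). They came from livers of BALB/c embryos at day 13.5 and were enriched by magnetic removal of cells carrying Ter119 and other lineage markers. One group was treated with Epo at 0.5 U/ml and measured hourly over 0 to 8 h and then at 14, 19 and 24 h (12 arrays), and the other was left without Epo and measured at 0 to 7 h (8 arrays). There was 1 array for each treatment and time, and their number limits the precision. The labels do not state whether each time was a culture of its own. The p-values thus reflect only how the arrays, or their matched differences, scatter around the fitted mean or line. That scatter holds any trend over time that the fit left out, and the rest of it may be technical. The labels give both groups the same history before time 0, but in different ways: 1 h of starvation after the sort, and 12 to 14 h of culture with Epo and serum. The sample titles do not say whether both groups came from the same preparation of cells. No array had interferon added according to the labels.

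Type I interferons are secreted by cells that sense viral nucleic acid. Type I interferon binds the receptor chains Ifnar1 and Ifnar2, and type II interferon binds Ifngr1 and Ifngr2; kinases of the JAK family on these chains then activate STAT proteins. A complex that holds Stat2 and Irf9 binds the interferon-stimulated response element (ISRE) of target promoters, STAT dimers bind another short element, the gamma-activated site (GAS), and IRF proteins also bind the ISRE. The Epo receptor works through the related kinase Jak2 and mainly Stat5.

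Promoters of 26 of the 33 genes were found in the RefSeq sequences of build GRCm38.p6, taken from 250 bases before to 50 bases after each start of transcription. The ISRE core searched was GAAANNGAAA or, on the other strand, TTTCNNTTTC, where overlapping matches were allowed. It stood in promoters of 14 of the 26 genes (53.8%), against 1131 of 32851 promoters of all genes (3.44%), or 1079 of 27025 genes (3.99%). It was found in 4 of 4 GTPases, 9 of 16 type I targets and 1 of 6 IRF and STAT factors. The GAS letters TTCNNNGAA, which read the same on both strands, stood in 9 of the 26 genes (34.6%), against 2582 of 27025 genes (9.55%). A match describes the letters only and is not a measured binding site.

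The stretches below are shown because the 4 GTPase genes carry the ISRE core close to their start yet moved in different ways on the arrays, as given further on. Each is 90 bases, 5′ to 3′ on the strand of its gene, with matches of either motif in capitals. Gbp3 lies at chr3:142559964-142560053 on the plus strand, Gbp2 at chr3:142620583-142620672 (plus), Igtp at chr11:58199476-58199565 (plus) and Irgm1 at chr11:48871411-48871500 (minus).
Gbp3: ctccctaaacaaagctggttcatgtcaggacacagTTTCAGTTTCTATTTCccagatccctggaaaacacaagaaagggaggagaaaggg
Gbp2: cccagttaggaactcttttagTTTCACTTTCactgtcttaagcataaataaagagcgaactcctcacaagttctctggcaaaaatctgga
Igtp: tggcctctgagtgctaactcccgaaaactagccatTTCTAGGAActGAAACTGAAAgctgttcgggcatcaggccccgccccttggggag
Irgm1: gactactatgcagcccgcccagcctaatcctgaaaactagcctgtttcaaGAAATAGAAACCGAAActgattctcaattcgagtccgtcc
In Gbp3 the pair of overlapping cores begins 45 bases before the start, in Gbp2 the core begins 59 bases before it, in Igtp 34 and in Irgm1 30. Igtp alone of these 4 also held the GAS letters, beginning 45 bases before the start.

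For the type I targets, 3 promoters stand for those with an ISRE core farther upstream: Ifit1 at chr19:34640729-34640818 (plus), Ifit3 at chr19:34583369-34583458 (plus) and Cxcl10 at chr5:92349030-92349119 (minus), again with matches in capitals.
Ifit1: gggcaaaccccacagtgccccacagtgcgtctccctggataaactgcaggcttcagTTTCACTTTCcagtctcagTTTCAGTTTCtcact
Ifit3: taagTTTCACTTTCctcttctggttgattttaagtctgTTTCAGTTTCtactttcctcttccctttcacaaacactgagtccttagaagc
Cxcl10: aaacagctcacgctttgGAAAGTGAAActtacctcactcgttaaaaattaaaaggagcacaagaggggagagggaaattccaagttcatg
The upstream core begins 104 bases before the start in Ifit1, 156 in Ifit3 and 213 in Cxcl10. Ifit1 and Ifit3 each held a second core nearer to the start. The Ifit2 promoter held no ISRE core in its window, and no promoter of Usp18 was matched.

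Before the results, the arrays were compared with one another. At 0 h, 3.03% of all genes lay at least 1 apart on the log2 scale between the series, and none of the 33 did, with differences of -0.39 to 0.87. Of the CFU-E and erythroid markers 7 of 8 had a mean signal above that of the median gene, which was 4.91, Hba-a1 being the exception. The same held for 2 of 15 macrophage, 1 of 6 dendritic cell, 1 of 9 lymphoid, 0 of 5 endothelial, 3 of 4 megakaryocyte, 4 of 8 granulocyte and 6 of 7 hepatocyte markers. Hepatocyte markers, transcripts of the tissue the cells were sorted from, had a summed linear signal of 338 to 2341 at 14 to 24 h with Epo, 6805 to 31548 at 0 to 8 h with Epo and 4963 to 15327 without Epo. For the macrophage markers these sums were 271 to 289, 184 to 238 and 189 to 232. The array of 24 h with Epo had the narrowest spread of values (SD 2.42, against 2.55 to 2.69 on the others). Brightness differs between probe sets for technical reasons, so levels are compared between arrays and not between genes.

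By the mean over 20 arrays, 17 of the 33 lay above the median gene and 16 did not, and the means ran from 2.38 for the guanylate-binding protein gene Gbp2 to 10.33 for Ifi35. The signal varied by at least 1 across the 12 Epo arrays in 18 genes and across the 8 arrays without Epo in 7. In 13 genes it varied by less in both series. The Epo series ran to 24 h and the other to 7 h, so the 2 counts cannot be set against each other. The shares over all genes were not computed. In none of 5 comparisons was a change called for 13 genes: the 2′-5′ oligoadenylate synthetase family genes Oas1a, Oasl1 and Oasl2, the antiviral GTPase Mx1, Ifit3, the RNA sensor Dhx58, Xaf1, Rtp4, Parp14, Gbp2, Iigp1, Irf1 and Irf8. The other 20 were called at least once. Of the 13, 7 were called under some alternative: Irf1 without the 0 h array, Irf8 with the mean of all probe sets, Oas1a and Dhx58 (Epo effect) and Gbp2 (late) after quantile normalization, and Oasl2 and Iigp1 (late) without the 14 h array.

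**Figure D1:**
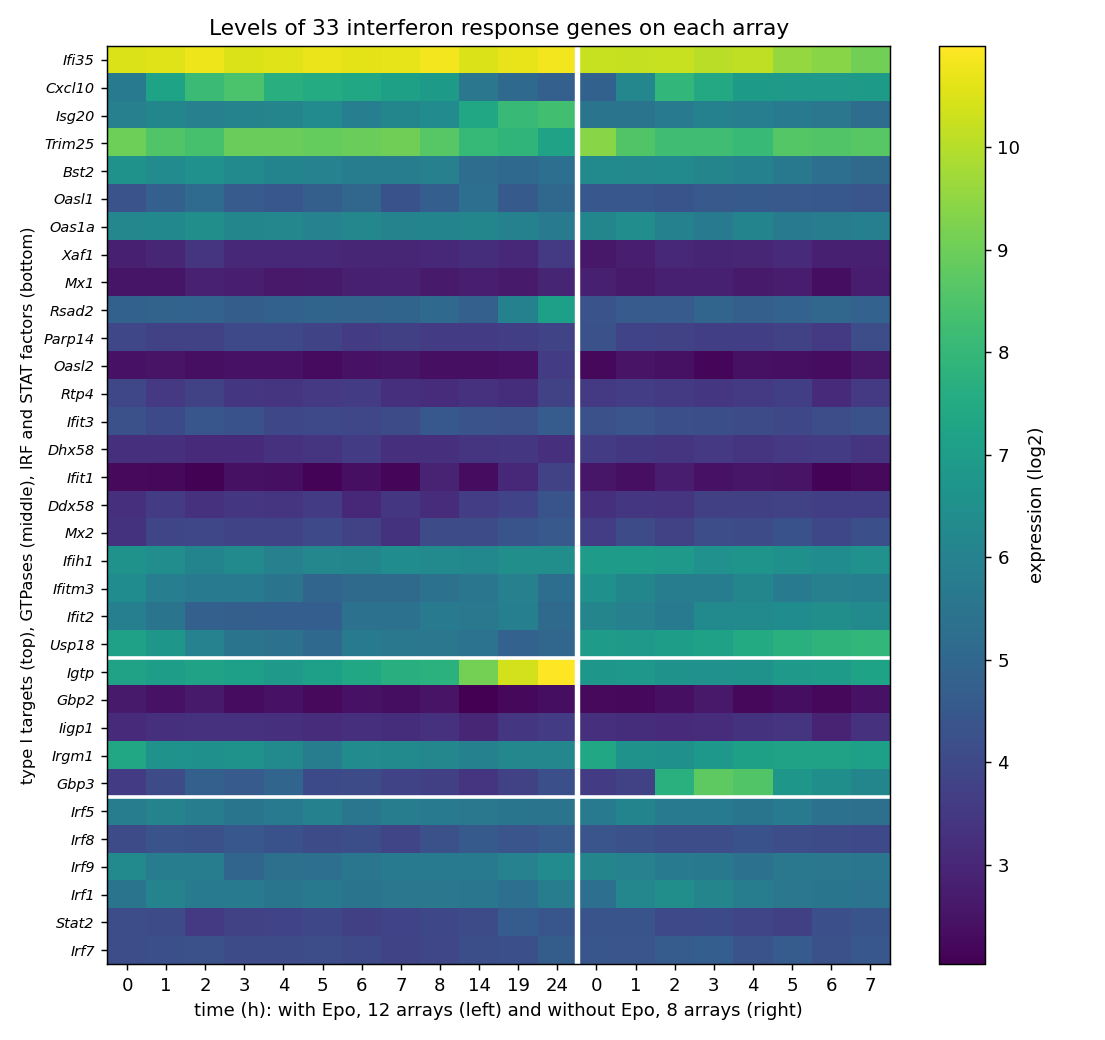
Signal (log2, colour) of the 33 interferon response genes (rows) on each array (columns, time in h), with the 12 Epo arrays left of the 8 arrays without Epo, and white lines between gene groups. Igtp is brightest at 24 h with Epo (10.99) and Gbp3 at 3 h without Epo (8.78), while many rows hardly change colour.

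The first comparison asked how the genes differed between cells with and without Epo over 1 to 7 h, as the mean of 7 matched differences (log2, Epo minus no Epo) in limma, with p-values adjusted over all genes. Of the 33 genes 6 were higher with Epo and 7 lower at an adjusted p under 0.05, where 18.2% of all genes were higher and 20.2% lower. The median difference was 0.03, and 0.03 over all genes. By group, 5 type I targets were higher and 4 lower of 22, 1 GTPase was higher and 2 lower of 5, and 0 factors were higher and 1 lower of 6. For the factors, 0 were also higher at an unadjusted p under 0.05. After centring each array on its median the split of all genes moved to 2391 higher and 4477 lower, against 3312 and 3670 as deposited. That of the 33 genes moved to 4 higher, without Bst2 and Trim25, and 11 lower, with Ddx58 (-0.30), Dhx58 (-0.25), Mx2 (-0.33) and Stat2 (-0.33) added. These 4 genes were dim. As deposited, the other probe sets of Ddx58 (0.21 and 0.08) and Dhx58 (0.2 and 0.24) differed the other way, and that of Stat2 by -0.17. Of the markers, 5 of 7 hepatocyte genes were higher with Epo (median 0.88) and 5 of 8 erythroid genes were lower. In addition, 2 of 15 macrophage, 0 of 6 dendritic cell and 1 of 9 lymphoid genes were higher. Gaps were there at 0 h already. Every hepatocyte marker was then higher in the Epo series, with Ttr at 12.68 against 10.93. Among the erythroid markers Kit was lower at 0 h (6.99 against 8.39) and Alas2 higher (7.7 against 6.75). The part of the marker genes' cells in the results was not tested. RNA of bulk samples was measured, so fewer cells of a type and less RNA per cell cannot be told apart.

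**Figure D2:**
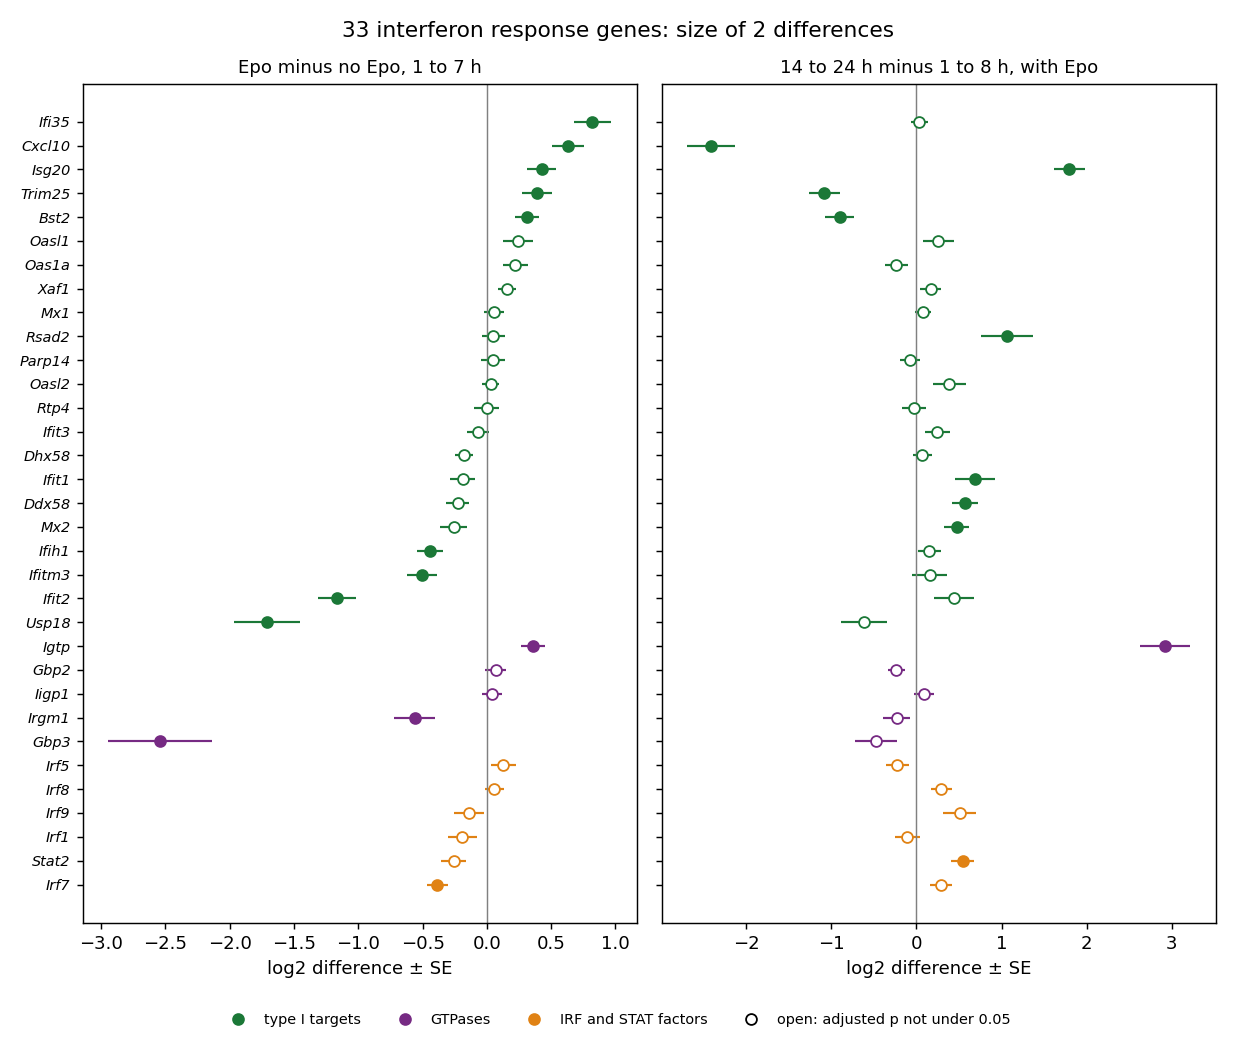
Differences on the log2 scale with standard errors for each of the 33 genes, Epo minus no Epo over 1 to 7 h (left) and 14 to 24 h minus 1 to 8 h with Epo (right); filled points have an adjusted p under 0.05. Gbp3 (-2.54) and Usp18 (-1.71) lie farthest left in the left panel, and Igtp (2.92) and Cxcl10 (-2.41) farthest out in the right one.

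Among the GTPases, Gbp3 showed the largest difference of all 33 genes. It encodes a guanylate-binding protein, a large GTPase that acts on membranes around intracellular pathogens. Cells with Epo had 3.63 at 0 h, 4.12, 4.78, 4.59, 4.96, 4.05, 4.07, 3.87 and 3.74 at 1 to 8 h, and 3.42, 3.76 and 4.22 at 14, 19 and 24 h. Without Epo the gene had 3.61 at 0 h and then 3.78, 7.71, 8.78, 8.56, 6.78, 6.49 and 6.14 at 1 to 7 h. The course without Epo was thus a burst that was highest at 3 h, and over 1 to 7 h the series overlapped only through the 1 h array without Epo. The mean over 1 to 7 h was 4.35 ± 0.42 with Epo and 6.89 ± 1.71 without (SD, n = 7 arrays each), a difference of -2.54 ± 0.40 (SE, limma adjusted p = 0.00043), or 5.82-fold lower. From the 0 h array of each series, a baseline of 1 array each, the difference was about the same, -2.56. A straight line over 0 to 7 h did not capture the burst without Epo (2.35 over the span, adjusted p = 0.31). Its neighbours on the chromosome differed less: Gbp7 by -0.27 (adjusted p = 0.092), Gbp2b by -0.15 and Gbp2, the other member of the family in the list, by 0.07. Members of this family are alike in sequence, and cross-hybridisation of the Gbp3 probe set was not tested.

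Irgm1 and Igtp, the immunity-related GTPases that regulate other GTPases of this kind, went in opposite directions. Irgm1 with Epo had 7.41 at 0 h, 6.61, 6.53, 6.64, 6.33, 5.84, 6.37, 6.28 and 6.19 at 1 to 8 h, and 5.98, 6.18 and 6.17 at 14 to 24 h. In cells without Epo it had 7.40 at 0 h and 6.61, 6.52, 6.82, 7.12, 7.19, 7.18 and 7.10 at 1 to 7 h. The level was lower at 1 h than at 0 h in both series (by 0.81 with Epo and 0.79 without), and the matched differences were within 0.18 up to 3 h and between -1.35 and -0.78 from 4 h on. Irgm1 was lower by 0.56 ± 0.16 with Epo over 1 to 7 h (limma adjusted p = 0.017), and after quantile normalization by 0.43 (adjusted p = 0.052). Its fall along the Epo series over 0 to 8 h was 0.93 ± 0.26 (adjusted p = 0.041). Without the 0 h array the slope was -0.46 (adjusted p = 0.31). The call was also lost without the array of 3, 4, 6 or 7 h (adjusted p = 0.052 to 0.068). Igtp was higher by 0.36 ± 0.09 with Epo (adjusted p = 0.009) in 7 of 7 pairs, but the Epo series already lay 0.41 above at 0 h, and the difference from the own 0 h arrays was -0.05. The remaining GTPases, Gbp2 and Iigp1, stayed near background brightness, with differences of 0.07 and 0.04. The median signal of the 5 GTPases was 3.87 to 4.96 with Epo and 3.78 to 6.78 without Epo at 1 to 7 h, but on 17 of 20 arrays that median was Gbp3 itself.

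The clearest divergence among the type I targets was that of Usp18, the protease that takes ISG15 off proteins and also binds the Ifnar2 chain to dampen type I signalling. With Epo its signal was 7.17 at 0 h, 6.79, 6.00, 5.48, 5.41, 5.08, 5.75, 5.61 and 5.59 at 1 to 8 h, and 5.45, 4.85 and 4.98 at 14, 19 and 24 h. The untreated cells had 6.97 at 0 h and 6.86, 7.01, 7.17, 7.49, 7.73, 7.87 and 7.95 at 1 to 7 h. All Epo arrays of 1 to 7 h thus lay below all arrays without Epo of those hours. Usp18 was lower with Epo by 1.71 ± 0.26 (SE, n = 7 pairs, limma adjusted p = 0.0003), or 3.27-fold, and by 1.91 from the own 0 h arrays. The gap widened by 2.14 ± 0.40 over 1 to 7 h (adjusted p = 0.0021). It came from both sides: the gene fell by 1.43 ± 0.39 over 0 to 8 h with Epo (adjusted p = 0.033) and rose by 1.19 ± 0.16 over 0 to 7 h without (adjusted p = 0.00021). The fall with Epo was steepest in the first hours and was not called over 1 to 8 h (-0.82, adjusted p = 0.23). Its call was also lost without the array of 1 h (-1.23, adjusted p = 0.11) or 6 h (-1.51, adjusted p = 0.052). The same held with the mean of all probe sets (-1.43, adjusted p = 0.052).

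Ifit2, of the family that binds viral RNA and limits its translation, was the other gene whose series did not overlap in this direction. Under Epo it had 5.90 at 0 h, 5.48, 4.79, 4.73, 4.69, 4.70, 5.37, 5.39 and 5.70 at 1 to 8 h, and 5.62, 5.91 and 5.11 at 14 to 24 h. Without Epo the values were 6.11 at 0 h and 5.92, 5.68, 6.28, 6.28, 6.39, 6.45 and 6.29 at 1 to 7 h. The Epo series dipped at 2 to 5 h and came back, while the other stayed within 0.76. The difference over 1 to 7 h was -1.16 ± 0.15 (n = 7 pairs, limma adjusted p = 9.3e-05), 2.24-fold lower, and -0.96 from the own 0 h arrays. Its neighbour Ifit3 on the chromosome differed by -0.07 and Ifit1 by -0.19, neither of them called, and both had a dim signal.

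Ifi35, a leucine zipper protein of the cytosol that pairs with the protein Nmi, differed the other way. Its Epo series stayed between 10.53 and 10.84 on all 12 arrays, while the untreated cells had 10.23 at 0 h and 10.20, 10.22, 10.05, 10.12, 9.56, 9.40 and 9.09 at 1 to 7 h. Every Epo array of 1 to 7 h lay above every untreated one. The difference was 0.82 ± 0.15 (n = 7 pairs, limma adjusted p = 0.00097) and 0.52 from the own 0 h arrays, and it grew by 1.22 ± 0.21 over the span (adjusted p = 0.0013). The fall without Epo was 1.16 ± 0.18 over 0 to 7 h (adjusted p = 0.00057). The 3 probe sets of the gene gave differences of 0.82, 0.77 and 0.90. Ifi35 was the only gene of the 33 with all Epo arrays above all others, where 6.56% of all genes had that pattern, and Usp18 and Ifit2 were the only ones below, where 7.31% of all genes were.

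**Figure D3:**
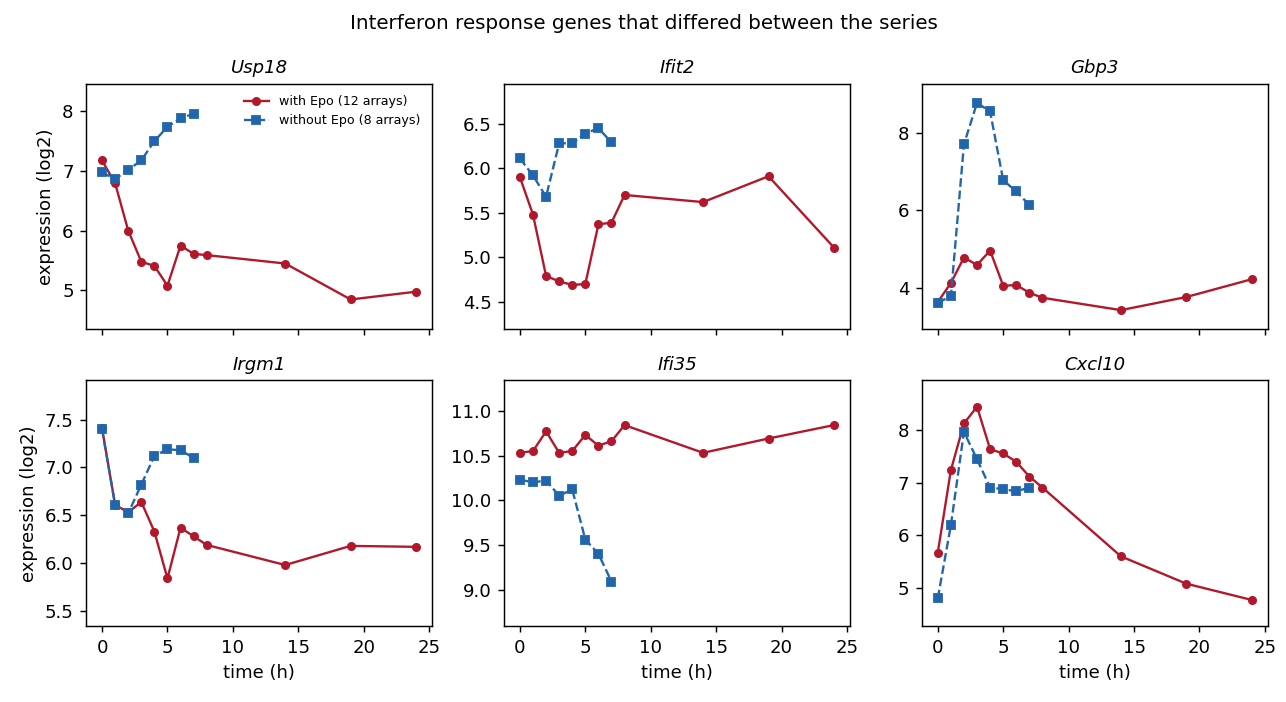
Signal (log2) against time (h) for 6 interferon response genes with Epo (circles, 12 arrays) and without (squares, 8 arrays); each point is 1 array, so there are no error bars, and the vertical scales differ. Usp18 ends at 5.61 with Epo and 7.95 without at 7 h, and Gbp3 peaks at 8.78 at 3 h without Epo.

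Cxcl10, the chemokine that attracts cells with the receptor Cxcr3, moved more over time than between treatments. It had 5.67 at 0 h, 7.24, 8.13, 8.45, 7.64, 7.56, 7.40, 7.12 and 6.91 at 1 to 8 h, and 5.60, 5.08 and 4.77 at 14, 19 and 24 h with Epo. The values without Epo were 4.80 at 0 h and 6.19, 7.97, 7.45, 6.91, 6.88, 6.84 and 6.91 at 1 to 7 h. At 1 h the signal was above that at 0 h in both series, by 1.57 with Epo and 1.39 without, and it was highest at 3 h with Epo and at 2 h without. Over 1 to 7 h Cxcl10 was higher with Epo by 0.63 ± 0.13 in 7 of 7 pairs (limma adjusted p = 0.0019). A gap of 0.87 was there at 0 h, and with it subtracted the difference between the series was -0.24.

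The other called type I targets differed less. Isg20, an exonuclease that degrades RNA, was higher with Epo by 0.43 ± 0.11 (limma adjusted p = 0.01), with -0.03 from the own 0 h arrays. Trim25, a ubiquitin ligase acting on the RNA sensor Ddx58 (RIG-I), was higher by 0.39 ± 0.11 (adjusted p = 0.018) and by 0.76 from the own 0 h arrays. Of its 3 probe sets the others gave 0.30 and -0.04. Bst2, which tethers virus particles to the cell surface, was higher by 0.31 ± 0.10 (adjusted p = 0.024) and by 0.02 from the own 0 h arrays. After median centring the calls of Trim25 (adjusted p = 0.054) and Bst2 (adjusted p = 0.077) were lost. That of Trim25 was also lost with the mean of all probe sets (0.22, adjusted p = 0.21) and without the arrays of 3 or 4 h. That of Bst2 was also lost without those of 5, 6 or 7 h. Ifitm3, which blocks the fusion of virus and cell membranes, was lower by 0.51 ± 0.12 (adjusted p = 0.0052), with -0.39 from the own 0 h arrays. Ifih1, the RNA sensor MDA5, was lower by 0.44 ± 0.10 (adjusted p = 0.0052), with -0.06 from the own 0 h arrays. The 13 type I targets without a call had differences between -0.26 for Mx2 and 0.24 for Oasl1.

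With the difference at 0 h subtracted, no gene of the 33 was called higher or lower with limma, and at an unadjusted p under 0.05 the counts were 1 higher and 3 lower. Over all genes 3 were higher and 9 lower in that fit, whose baseline is only 1 array of each series. With a linear drift of the differences allowed, 0 members were higher and 1 lower, Usp18, where 1.34% of all genes were higher and 2.39% lower.

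The IRF and STAT factors differed little between the series. Irf7, which drives interferon alpha genes, was lower with Epo by 0.39 ± 0.08 in 7 of 7 pairs (limma adjusted p = 0.0031), at a mean of 4.09 ± 0.14 with Epo and 4.48 ± 0.17 without (SD, n = 7 each), and by 0.12 from the own 0 h arrays. For Stat2, a subunit of the complex that binds the ISRE, the lowest and highest values over 1 to 7 h were 3.55 and 4.08 with Epo and 3.72 and 4.35 without, a difference of -0.26 ± 0.10 (adjusted p = 0.06). That of Irf9, the DNA-binding subunit of the same complex, was -0.14 ± 0.11 (adjusted p = 0.38), with values of 4.94 to 5.84 with Epo and 5.41 to 5.99 without. Irf1, an activator that is itself induced by interferon, had 5.49, 6.04, 5.77, 5.67, 5.51, 5.65, 5.47 and 5.59 at 0 to 7 h with Epo and 5.29, 6.16, 6.45, 6.10, 5.79, 5.58, 5.51 and 5.44 without. It was brightest at 1 h with Epo and at 2 h without, and its mean difference of -0.19 ± 0.11 did not pass (adjusted p = 0.2). Irf5 (0.13) and Irf8 (0.06), factors best known from myeloid cells, were not called either. The median of the 6 factors lay at 4.69 to 5.09 with Epo and 4.82 to 5.19 without.

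The next comparison asked whether the gap between the series changed over 1 to 7 h. Of the 33 genes 1 moved up, Ifi35, and 2 moved down, Usp18 and Irgm1, at an adjusted p under 0.05, where 7.26% of all genes moved up and 7.97% down. The change for Irgm1 was -1.12 ± 0.33 (limma adjusted p = 0.029), with matched differences of -0.01 and 0.01 at 1 and 2 h, and of -0.81 and -0.82 at 6 and 7 h. It was not called without the arrays of 1 h (-0.94, adjusted p = 0.083), 2 h (-1.01, adjusted p = 0.1) or 6 h (-1.20, adjusted p = 0.067). Ifitm3 was close to the threshold, at -0.79 ± 0.27 (adjusted p = 0.063, and 0.049 after quantile normalization). Of the 6 factors 0 were called by limma, and 0 had an unadjusted p under 0.05.

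Within the series without Epo, the change over 0 to 7 h was called upward for 2 genes and downward for 5, where 13.3% of all genes went up and 15.4% down. The median change was -0.06, and -0.03 over all genes. Besides Usp18, Rsad2 rose, by 0.52 ± 0.17 (limma adjusted p = 0.036), with the lowest value of 4.32 at 0 h and 4.59 to 5.00 later. It encodes viperin, an enzyme that makes a chain-terminating antiviral nucleotide. Bst2 fell by 1.25 ± 0.19 (adjusted p = 0.0004), on a course of 6.30, 6.25, 6.31, 6.12, 5.98, 5.64, 5.31 and 5.13. The others that fell were Ifi35, Irf5 (by 0.57, adjusted p = 0.027), Ifih1 (by 0.55, adjusted p = 0.025) and Irf9 (by 0.52, adjusted p = 0.047). All 6 factors had a negative slope, of which 2 passed, and Irf1 was at -0.43 (adjusted p = 0.44). Without the 0 h array Irf1 was called, at -0.98 (adjusted p = 0.0031), and with the mean of all its probe sets Irf8 was called, at -0.77 (adjusted p = 0.0039). The calls of Rsad2, Irf5, Ifih1 and Irf9 were each lost without some single array, among them that of 1 h, without which 1 gene rose and 2 fell. Along this series all 7 hepatocyte markers fell (median -1.95), 4 of 8 granulocyte markers fell, among them Mpo, which fell by 3.50, and Prtn3, which fell by 3.21, and 5 of 8 erythroid markers rose. Their part in these changes was not tested.

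Within the Epo series over 0 to 8 h, 0 genes were called upward and 4 downward, where 2.34% of all genes went up and 5.74% down. The median change was -0.12, and 0.01 over all genes. At an unadjusted p under 0.05 1 gene was upward, Igtp (0.60, limma adjusted p = 0.12), and 5 were downward. Besides Usp18 and Irgm1, Ifitm3 and Bst2 fell. Ifitm3 had 6.40 at 0 h and 5.87, 5.77, 5.68, 5.46, 4.96, 5.11, 5.13 and 5.37 at 1 to 8 h, a fall of 1.12 ± 0.24 (adjusted p = 0.0079), and -0.74 without the 0 h array (adjusted p = 0.07). Bst2 had 6.59 at 0 h and 6.37, 6.56, 6.31, 6.06, 6.00, 5.83, 5.79 and 5.93 at 1 to 8 h and fell by 0.82 ± 0.18 (adjusted p = 0.0082). Bst2 thus fell in both series, and without the 0 h array of the Epo series it was the only one of the 4 still called. All 7 hepatocyte markers fell here too (median -2.16), and their part was not tested.

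Late in the Epo series the picture changed for a few genes. With 14, 19 and 24 h set against 1 to 8 h, 7 of the 33 were higher and 3 lower, where 17.6% of all genes were higher and 18.5% lower. The median change was 0.15, and 0.08 over all genes. Median centring moved the split of all genes to 2202 higher and 3738 lower, against 3207 and 3372. The late arrays have no untreated partner, so time and Epo cannot be told apart here. By group, 5 type I targets were higher and 3 lower, 1 GTPase was higher and 0 lower, and 1 factor was higher and 0 lower. In the groups with 0 lower, Gbp2 (-0.24) and Gbp3 (-0.47) had the most negative changes among the GTPases, and neither passed in limma; at an unadjusted p under 0.05 the counts of lower genes were 1, Gbp2, and 0. After quantile normalization (-0.31, adjusted p = 0.019) and median centring (-0.31, adjusted p = 0.026) Gbp2 was called lower.

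Igtp made the largest late change of the 33 genes. It had 7.00, 7.18, 7.07, 6.85, 7.07, 7.36, 7.65 and 7.75 at 1 to 8 h and 9.11, 10.39 and 10.99 at 14, 19 and 24 h. Every late array was above every earlier one, and the change was 2.92 ± 0.30 (SE, limma adjusted p = 1.8e-05), 7.58-fold higher. The gene next to it on the chromosome, Irgm2, a GTPase of the same regulatory kind and no member of the list, was at 10.17, 11.01 and 11.19 late and between 6.51 and 9.38 at 1 to 8 h, higher by 2.53 ± 0.47 (adjusted p = 0.00085). Irgm2 had already climbed by 2.91 ± 0.22 over 0 to 8 h (adjusted p = 7e-07) and was higher with Epo over 1 to 7 h by 1.33 ± 0.17 (adjusted p = 8.4e-05), but it already lay 0.74 higher in that series at 0 h, and the difference from the own 0 h arrays was 0.59. Irgm1, in the same family, was not called late (-0.23, adjusted p = 0.27).

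Among the type I targets Isg20 was higher late by 1.80 ± 0.18 (limma adjusted p = 1.8e-05), at 7.37, 8.09 and 8.28 against 5.85 to 6.37 at 1 to 8 h. Rsad2 had 4.78, 5.97 and 7.07 at 14, 19 and 24 h against 4.67 to 5.09 earlier, a change of 1.06 ± 0.30 (adjusted p = 0.014). Its 3 probe sets gave 1.06, 0.62 and 1.03. The array of 24 h carried this call: without it the change was 0.50 (adjusted p = 0.12). The same held for 3 dim genes, the RNA-binding Ifit1 (0.69, and 0.32 without 24 h), the sensor Ddx58 (0.57, and 0.37) and the antiviral GTPase Mx2 (0.47, and 0.37), so that 3 of the 33 genes were higher without the 24 h array. Stat2, also dim, was higher by 0.54 ± 0.13 (adjusted p = 0.0054), at 4.12, 4.63 and 4.41 late and 3.55 to 4.08 at 1 to 8 h. Its value at 0 h with Epo was 4.14, above that of 14 h. The other probe set of Stat2 gave 0.33. Against 6 to 8 h alone the change of Stat2 was not called (0.55, adjusted p = 0.059). Irf9 had 5.75, 6.01 and 6.36 late, beside 6.31 at 0 h, and was at 0.51 ± 0.19 (adjusted p = 0.053). It was called higher under several alternatives. Among them were quantile normalization (0.75, adjusted p = 0.017) and leaving out the 14 h array (0.65, adjusted p = 0.029).

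**Figure D4:**
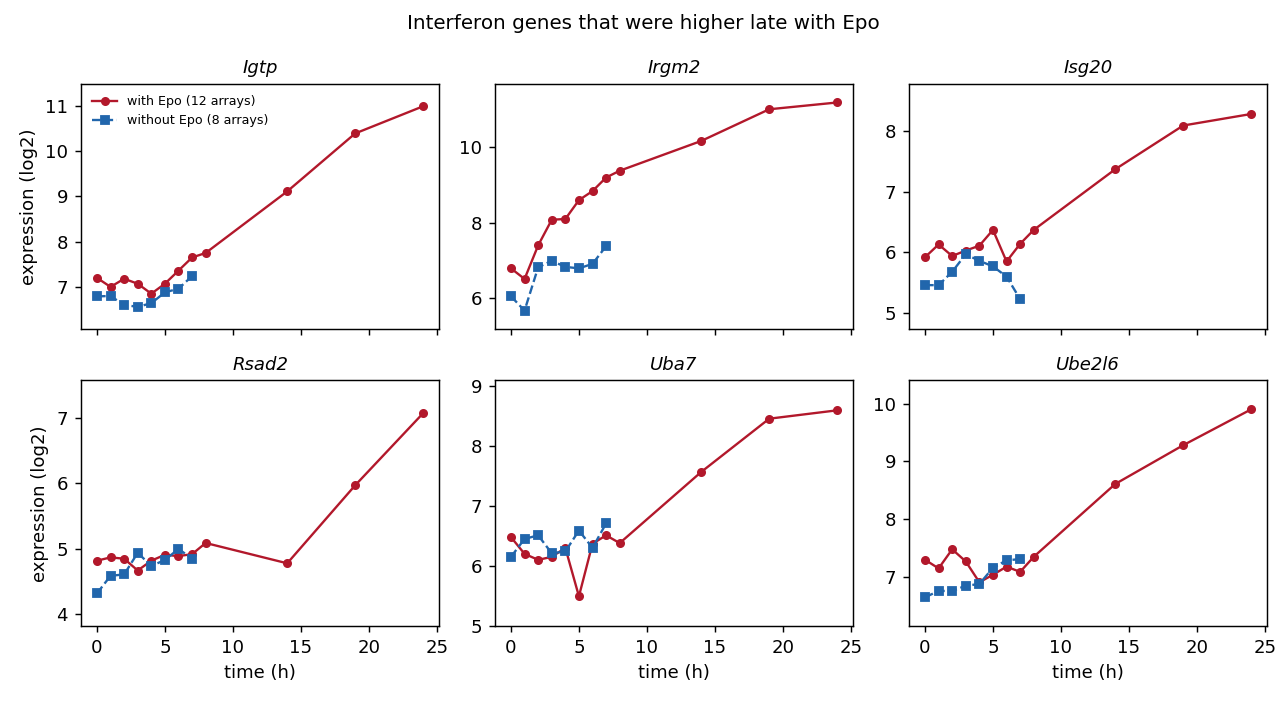
Signal (log2) against time (h) of Igtp, Isg20 and Rsad2 and of 3 further interferon targets, Irgm2, Uba7 and Ube2l6, with Epo (circles, 12 arrays) and without (squares, 8 arrays); each point is 1 array and the vertical scales differ. At 24 h with Epo, Igtp reaches 10.99 and Isg20 8.28, and Rsad2 lies above its earlier values only at 19 and 24 h (5.97 and 7.07).

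Cxcl10, Trim25 and Bst2 were lower late. Cxcl10 fell to 5.15 ± 0.42 at 14 to 24 h, against 7.56 ± 0.52 at 1 to 8 h (SD, n = 3 and 8 arrays), a change of -2.41 ± 0.28 (limma adjusted p = 3.6e-05) with all 3 late arrays below the 5.67 of 0 h. Trim25 had 8.04, 7.89 and 7.21 late and 8.57, 8.39, 8.93, 8.95, 8.86, 8.95, 9.05 and 8.67 at 1 to 8 h, lower by 1.08 ± 0.18 (adjusted p = 0.00039), and by 1.33 and 0.37 on its other probe sets. Bst2 had 5.24, 5.08 and 5.29 late, lower by 0.90 ± 0.17 (adjusted p = 0.00077). For these 3 genes no late array overlapped those of 1 to 8 h. The same held, in the other direction, for Isg20, Ddx58, Mx2, Igtp and Stat2. The share of all genes with this pattern was not computed. Late, 6 of 7 hepatocyte markers were lower (median -3.34). Of the erythroid markers 5 of 8 were higher, Alas2 by 3.20, and 1 was lower, Kit (-1.55). Of the megakaryocyte markers 2 of 4 were higher, with Pf4 at 2.03. Further, 4 of 15 macrophage, 4 of 6 dendritic cell, 3 of 9 lymphoid and 5 of 8 granulocyte markers were higher, and 2 granulocyte markers were lower. The summed linear signal of the dendritic cell markers was 149 to 179 late and 111 to 132 at 0 to 8 h. Of 5 endothelial markers 0 were called in limma. The part of these cells in the late changes was not tested. Of the macrophage markers 13 of 15 had a mean signal at or below that of the median gene.

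The receptors, kinases and other factors of the pathway, a list of 30 genes of which 28 were represented, held 1 gene higher and 11 lower with Epo over 1 to 7 h (median -0.12), where 18.2% of all genes were higher and 20.2% lower. Jak1, a kinase of all these receptors, was the higher one, by 0.52 ± 0.14 (limma adjusted p = 0.014). Ifnar2 was lower by 0.79 ± 0.15 (adjusted p = 0.0014), Ifnar1 by 0.35 (adjusted p = 0.021, and by 0.06 from the own 0 h arrays), Ifngr1 by 0.65 (adjusted p = 0.00075, and by 0.30) and Ifngr2 by 1.00 (adjusted p = 0.00057, and by 0.60). Tyk2, the kinase paired with Ifnar1, was at -0.17 (adjusted p = 0.21) and Irf3, which switches on interferon beta, at 0.03 (adjusted p = 0.8). Irf2, a repressor that competes with Irf1, averaged 3.83 ± 0.24 with Epo and 4.84 ± 0.31 without (SD, n = 7 each), lower by 1.01 (adjusted p = 0.00027), with no overlap. Its partner Irf2bp2 was lower by 1.69 (adjusted p = 3.2e-06), of which 0.56 remained from the own 0 h arrays. The late change of Ifnar2 was 1.40 ± 0.21 (adjusted p = 0.00017), at 8.61, 9.54 and 9.94 late against 7.76 to 8.18 at 1 to 8 h. In the remaining comparisons 2 genes of the list were higher and 1 lower for the change of the gap, 3 and 4 for the slope without Epo, 0 and 2 for the slope with Epo (limma, with 1 higher at an unadjusted p under 0.05), and 5 and 7 late. The shares of all genes higher and lower were 7.26% and 7.97% for the change of the gap, 13.3% and 15.4% for the slope without Epo, 2.34% and 5.74% for the slope with Epo, and 17.6% and 18.5% late.

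A wider list of 63 other interferon targets, of which 57 were represented, had 10 higher and 17 lower with Epo (median -0.07), against the same 18.2% and 20.2% of all genes. Tapbp, which loads peptides onto class I molecules, averaged 7.41 ± 0.16 with Epo and 9.24 ± 0.91 without (SD, n = 7 each), lower by 1.83 ± 0.27 (limma adjusted p = 0.00024). It rose by 2.82 over 0 to 7 h without Epo (adjusted p = 2.3e-05), as Usp18 did. Psmb10, a subunit of the immunoproteasome, averaged 10.17 ± 0.29 with Epo and 9.06 ± 0.56 without, higher by 1.11 (adjusted p = 1.9e-05), and by 0.36 from the own 0 h arrays. Over 0 to 7 h without Epo, the sugar-binding protein gene Lgals9 fell by 3.13 (adjusted p = 4.2e-05), and the immunoproteasome gene Psmb8 fell by 1.61 (adjusted p = 4.8e-05). The counts of genes higher and lower were 6 and 6 for the change of the gap, 8 and 10 for the slope without Epo and 3 and 9 for the slope with Epo, beside the shares of all genes given above for the receptors and kinases. Late with Epo 10 genes of the list were higher and 9 lower, where 17.6% of all genes were higher and 18.5% lower. Ube2l6, the conjugating enzyme of the ISG15 system, was higher by 2.08 ± 0.21 (adjusted p = 1.8e-05), at 8.61, 9.28 and 9.90, and its activating enzyme Uba7 by 2.02 ± 0.23 (adjusted p = 2.7e-05), at 7.57, 8.46 and 8.60. Uba7 was named after its values were seen. Usp18, which acts against these enzymes, was not called late (-0.62, adjusted p = 0.085), and Ly6e, a membrane-anchored protein, fell by 2.48 (adjusted p = 0.0002).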

How the data were processed

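RNA of 20 samples was measured with 1 array each. The deposited table runs from 1.37 to 14.6, which fits log2 values. The software and scaling that the authors used are not given in the sources used here. Arrays have no sequencing depth; precision is limited by how many there are. Of 45101 probe sets, 34958 named 1 gene, 932 several and 9211 none in the platform annotation. A gene's brightest probe set (mean of 20 arrays) stood for it; 13 of the 33 genes had several. RefSeq tables of GRCm38.p6 gave names, neighbours and promoters.

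The 5 comparisons were fitted over all 18194 genes with limma 3.58.1 in R 4.3.3 (empirical Bayes with trend): the Epo effect over 1 to 7 h with time as a block, its change over those hours, the slopes without and with Epo, and 14 to 24 h against 1 to 8 h with Epo. Slopes are given over their whole span. A call needed a Benjamini-Hochberg adjusted p under 0.05. The fits were tested on simulated data. The member list, the other lists and the tests were chosen with earlier results of these data known.

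Named in full were genes called with a size of at least 1, and Stat2, Irf9 and Irf1; of the other interferon lists, from the 3 largest called changes per comparison, and Ifnar1, Ifnar2, Ifngr1, Jak1, Tyk2, Irf2 and Irf3. Alternatives were other scalings, brighter genes only, other probe set rules and variance models, each time left out, and other uses of the 0 h arrays, spans and baselines; leaving out 2 h and 24 h together was added after seeing the data. Tables and plots used matplotlib 3.10.9, numpy 2.4.6, pandas 2.3.3 and Python 3.11.15.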

Additional observations from a re-analysis of the deposited data

Results flagged for a closer look

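For 3 genes the difference between cells with and without Epo changed over 1 to 7 h, by the test of the slope of the matched differences in limma. For Usp18 the change was -2.14 on the log2 scale (adjusted p = 0.0021), with lower values under Epo that moved away from the untreated ones. For Ifi35 it was 1.22 (adjusted p = 0.0013), with a steady Epo series and a falling untreated one. For Irgm1 it was -1.12 (adjusted p = 0.029), and this call was lost without the arrays of 1, 2 or 6 h. With 1 array for each treatment and time, no group could be examined for outlying samples.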

How the results depend on the processing

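Of 37 calls on single genes, 11 kept their direction and side of the threshold under every alternative run for them: the changed gap of Usp18 and Ifi35, the slopes of Usp18, Ifi35 and Bst2 without Epo and of Bst2 with Epo, and the late changes of Igtp, Isg20, Cxcl10, Trim25 and Bst2. The cause of the changes below was not tested, except where fewer genes or arrays entered by construction.

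With the 0 h difference subtracted, 0 genes were higher and 0 lower (limma; 1 and 3 at an unadjusted p under 0.05), and with drift 0 and 1 (2 and 3). In both fits the Epo differences of Isg20 (-0.03), Cxcl10 (-0.24) and Igtp (-0.05) reversed. Median centring gave 4 higher genes in place of 6 and 11 lower in place of 7. Leaving out each time in turn gave 5 to 7 higher and 6 to 8 lower. The change of the gap was called up for 1 to 1 and down for 1 to 2 genes, with 1 without 1, 2 or 6 h.

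The slope without Epo was called up for 1 to 3 and down for 2 to 5 genes with each time left out. Up it was 1 without 1, 5 or 6 h, and down it was 2 without 1 or 6 h and 3 without 5 or 7 h. The slope with Epo was called up for 0 to 0 and down for 1 to 4 genes, with 1 without 0 h and 2 without 6 h; it was 2 with the mean of all probe sets and 1 over 1 to 8 h. The late comparison gave 3 to 10 higher and 3 to 4 lower genes, with 3 higher without 24 h. It gave 4 higher among the 17 brighter genes, 3 against 6 to 8 h and 3 without 2 h and 24 h. The 16 dim genes limit what could be seen: 1 of them was called for Epo, Irf7.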

Other observations

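Some genes differed between 1 h and 0 h in the same direction in both series. At 1 h Cxcl10 was higher than at 0 h by 1.57 with Epo and 1.39 without, Irf1 by 0.55 and 0.87, and Mx2 by 0.56 and 0.41, while Irgm1 was lower by 0.81 and 0.79 and Trim25 by 0.45 and 0.82. These are single arrays with no test.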
